A study of Mus musculus with 16 samples.

Results

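The cells described here are 2697 cells of the oligodendrocyte lineage from the injured spinal cords of 11 mice, out of 14392 cells recovered from those cords. They were taken by the cell type names in the deposited cell table, which has 17 clusters: 1443 cells of Cluster 4 and 711 of Cluster 8, both named as oligodendrocytes, and 543 of Cluster 11, named as oligodendrocyte precursor cells (OPC). The mice had a dorsal column lesion and were sampled 1 d, 7 d or 14 d later, at an age given as 8-10 weeks old. The conditional knockout (cKO) mice were Rykfl/fl,GFAPcreERT2 and the controls (WT) were Ryk+/+,GFAPcreERT2. All mice were given tamoxifen, and mice of both sexes were used.

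Ryk is a Wnt receptor that lacks tyrosine kinase activity. Oligodendrocytes wrap axons in myelin, and OPC divide and replace them after injury, with Wnt signalling among the pathways that time their differentiation. The Cre recombinase was driven from GFAP, an astrocyte gene, so the oligodendrocyte lineage was not its intended target. The 3′ tags that were counted may lie outside the deleted part of Ryk, so counts of Ryk do not check the genotype of these cells. The question asked of these cells was whether their transcripts differed between injured cords of cKO and WT mice.

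The injured WT group had 5 mice, 1 at 1 d and 2 each at 7 d and 14 d, and the injured cKO group had 6 mice, 2 at each time. WT 1 d replicate 2 was left out because its library held 1 cell, of another cluster. WT and cKO mice gave 513 and 930 cells of Cluster 4, 235 and 476 of Cluster 8, and 168 and 375 of Cluster 11. Levels are given as CPM, the UMIs of a gene in each 1000000 UMIs of that cluster's cells in that mouse. The summed depth per injured mouse ran from 63439 to 790355 UMIs in Cluster 4, from 44709 to 473653 in Cluster 8 and from 18106 to 396287 in Cluster 11, with WT 1 d replicate 1 lowest in each. Low values in that mouse rest on few molecules: its 55.2 CPM of Ryk in Cluster 11 is 1 UMI. Uninjured mice, named Sham in the labels, serve as the background: 2 WT and 2 cKO in Cluster 4, and 2 WT and 1 cKO in Clusters 8 and 11, where cKO uninjured replicate 1 had 7 and 8 cells.

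Several libraries stood apart before any gene was compared. Replicate 1 of WT and of cKO at 1 d and at 7 d, the injured mice with animal numbers below 10000, had a median of 414 to 548 UMIs per cell over all their cells, against 1514 to 3637 in the other 7 injured mice. Those 4 libraries also shared 28 to 115 cell barcodes in each of their 6 pairs, whereas no other pair shared more than 4. Without the 4 shallow libraries 1 gene was called in Cluster 4 and 0 in Clusters 8 and 11 by edgeR. The names of the single cells carried another condition than the sample titles for 3 of the injured mice: WT 7 d replicate 2, WT 14 d replicate 2 and cKO 14 d replicate 2. The same held for both uninjured replicates 2, of which cKO uninjured replicate 2, named as WT 7 d, is the 1 uninjured cKO mouse behind every uninjured comparison in Clusters 8 and 11. Titles were followed here, and no gene was called in the 3 clusters by edgeR either with the conditions of the cell names or without those mice. Transcripts of Xist, which is expressed from the inactive X chromosome, exceeded those of 4 Y-linked genes in 2 of 5 WT mice (7 d replicate 2, 14 d replicate 2) and 1 of 6 cKO mice (1 d replicate 1). Differences in Xist, its antisense Tsix and Y-linked genes therefore cannot be told apart from the sexes of the mice.

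The cluster names were compared with marker genes. The genes that led Cluster 4 over all other cells included Opalin, Ptgds, Tspan2 and Il33, and Opalin was a listed oligodendrocyte marker. Cluster 8 was led by Klk6, Nkx2-9, Npb, Hopx, Gjb1 and Serpina3n, and 0 of its 10 leading genes were on the marker lists, although its mature myelin transcripts were abundant (Mbp 7681 CPM in WT and 6851 CPM in cKO mice). Cluster 11 was led by Gpr17, Neu4, Tnr, C1ql1 and Vcan, and 5 of its 10 leading genes were markers of precursors or of committed precursors. Because both oligodendrocyte clusters share a name, the clusters are called by number. Cells holding at least 3 markers of another cell type varied widely between mice: in Cluster 8 from 0 to 77.8% of the cells in the 5 WT mice (median 13.8%) and from 0.877 to 77.7% in the 6 cKO mice (median 51.9%). In Cluster 4 these ranges were 3.23 to 64.6% (median 36.6%) and 2.52 to 63.1% (median 55.2%), and in Cluster 11 1.56 to 78.6% (median 22.7%) and 8.27 to 83.3% (median 69.5%). The medians were higher in cKO mice in each cluster, and the ranges overlapped. In the 4 shallow libraries the shares were 2.52 to 5.26%, 0 to 3.39% and 1.56 to 8.54% in Clusters 4, 8 and 11. The other 7 injured mice had 36.6 to 64.6%, 13.8 to 77.8% and 22.7 to 83.3%. The median UMIs per cell of Cluster 11 ran from 365.5 to 4370 over the WT mice and from 353.5 to 7703 over the cKO mice, and the part of depth in the mixed cells was not tested.

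The shares of the 3 clusters overlapped between genotypes. Cluster 4 made up 9.36 ± 2.27% of all cells in injured WT mice (mean ± SD, n = 5) and 10.2 ± 2.57% in injured cKO mice (n = 6), with uninjured means of 11.2% and 9.27%. Cluster 8 made up 4.41 ± 1.56% and 5.11 ± 1.30%, and Cluster 11 made up 3.08 ± 1.32% and 4.17 ± 2.34%. The mean difference of the 3 time points, cKO less WT, was 0.409, 0.413 and 1.08 percentage points, and exact two-sided permutations within time points gave p 0.787, 0.546 and 0.417. Within the lineage, Cluster 8 was 31.9 ± 7.89% of the oligodendrocytes of Clusters 4 and 8 in WT and 33.8 ± 7.08% in cKO mice (exact permutation p 0.611). Cluster 11 was 18.1 ± 5.17% and 20.4 ± 7.64% of the lineage (exact permutation p 0.685). Every adjusted p over these 5 tests was 0.787, and the smallest p the 108 arrangements allow is 0.00926. Without cKO 7 d replicate 1 the differences were -0.732 percentage points for Cluster 4 and 0.173 for Cluster 11, and without cKO 1 d replicate 2 that of Cluster 8 was 0.0423. For Cluster 11 of the lineage the difference of 2.95 points became -0.364 without cKO 1 d replicate 1.

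Ryk transcripts were detected in these clusters at similar levels in both genotypes. In Cluster 4, Ryk ran from 26.5 to 78.8 CPM in WT mice (median 48.1) and from 28.2 to 63.3 CPM in cKO mice (median 49.0), on 58 and 129 UMIs. In Cluster 8 it ran from 30.0 to 70.4 CPM (median 56.4) and from 56.9 to 111 CPM (median 68.1), and in Cluster 11 from 48.0 to 147 CPM (median 59.5) and from 55.5 to 125 CPM (median 72.3). The ranges overlapped in each cluster, and cKO 1 d replicate 1 was the highest cKO mouse in Clusters 8 and 11. The log2 fold changes, cKO over WT with time point as a term, were -0.00 ± 0.43 (± SE) in Cluster 4, 0.40 ± 0.36 in Cluster 8 and -0.11 ± 0.42 in Cluster 11, with unadjusted edgeR p of 0.998, 0.277 and 0.791. The sign in Clusters 4 and 11 changed with the gene filter, the design terms and single mice, reaching 0.21 in Cluster 4 without WT 7 d replicate 2 and 0.15 in Cluster 11 without WT 14 d replicate 1. The value in Cluster 8 fell to 0.09 without WT 14 d replicate 2. Of single cells, 7.60% of WT and 10.2% of cKO cells in Cluster 4 held a Ryk UMI, 10.6% and 12.8% in Cluster 8 and 14.9% and 14.7% in Cluster 11. In myeloid Cluster 16 those shares were 0 and 2.67%, and in astrocyte Cluster 7 they were 29.5% and 37.7%. The pooled level of Ryk in Cluster 7 was 147 CPM in WT and 141 CPM in cKO cells. Median UMIs per cell were 1422 and 4211 in Cluster 7 and 611 and 3808 in Cluster 16, so these shares were compared at unequal depth. Uninjured values of Ryk in Cluster 4 were 66.8 and 18.7 CPM in WT and 49.8 and 12.7 CPM in cKO mice, on 1 to 33 UMIs.

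In Cluster 4, no gene passed an adjusted p of 0.05 among 4969 tested (0% called, edgeR), and 79 genes, 1.59%, had an unadjusted edgeR p under 0.05. DESeq2 also called 0 genes and gave 59 at unadjusted p under 0.05. The median log2 fold change was -0.02, 46.7% of genes were above 0, and the median SE was 0.32. Among the genes with the smallest p, Npsr1, Cacnb4, Psmd11 and Dpy19l1 were higher in cKO mice and Thsd4, Fcho1, Bicc1 and Tcf7l2 were lower, and none of these passed the test after adjustment.

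Npsr1, which encodes the neuropeptide S receptor, had the largest fitted difference among the genes named in Cluster 4, with overlapping mice. WT mice had 0 CPM at 1 d, 0 and 0 at 7 d, and 69.0 and 5.50 CPM at 14 d, from 17 UMIs in all. The cKO mice had 0 and 283 CPM at 1 d, 0 and 993 CPM at 7 d, and 357 and 449 CPM at 14 d, from 1110 UMIs. The 2 cKO mice at 0 were the replicates 1 of 1 d and 7 d, and uninjured mice of both genotypes were at 12.7 CPM or less. Its log2 fold change was 4.69 ± 1.23 (unadjusted edgeR p 0.00197), and it was 6.69 without WT 14 d replicate 1 and 3.94 without cKO 7 d replicate 2. With all genes of at least 1 UMI tested, Npsr1 was called in Cluster 4 (4.83, adjusted edgeR p 5.3e-26). Under that setting it was also called in Cluster 8 (5.39, adjusted edgeR p 0.0148). Npsr1 is also the 8th of the genes that lead Cluster 4 over other cells, and whether it took part in the clustering was not tested.

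Cacnb4, an auxiliary subunit of voltage-gated calcium channels, was at 164 to 298 CPM in WT mice and at 169, 318, 415, 615, 972 and 617 CPM in cKO mice from 1 d to 14 d (log2 fold change 1.13 ± 0.32, unadjusted edgeR p 0.00354). At 7 d and 14 d both cKO mice lay above both WT mice, and at 1 d they lay on either side of the WT mouse. Psmd11, a subunit of the proteasome cap, had a WT range of 24.1 to 63.1 CPM (median 44.8) and a cKO range of 75.9 to 141 CPM (median 89.4), without overlap at any time (1.01 ± 0.29, p 0.00421). Dpy19l1, of a family of mannosyltransferases, had WT values of 223 to 489 CPM (median 277) and cKO values of 341 to 828 CPM (median 553), with a log2 fold change of 0.81 ± 0.24 (p 0.00454). Its neighbour Gm10701 lies on the opposite strand and overlaps it over 6934 bases of chromosome 9, and it gave 1.51 ± 0.52 (p 0.0114). The strand of counting was not stated, and whether UMIs of 1 gene of the pair were counted for the other was not tested. St3gal1, a sialyltransferase, gave 1.22 ± 0.37 (p 0.00597), Cul4a, a scaffold of ubiquitin ligases, 1.05 (p 0.0121) and Gna13, a G protein alpha subunit, 0.97 (p 0.0123).

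On the lower side of Cluster 4, Thsd4, which encodes an extracellular matrix protein, had WT values of 15.8 CPM at 1 d, 0 and 132 CPM at 7 d, then 95.5 and 113 CPM at 14 d. The cKO mice lay between 11.5 and 30.4 CPM (median 21.3), and the log2 fold change was -1.92 ± 0.48 (unadjusted edgeR p 0.00136). The 3 high WT mice stood above all cKO mice and the other two did not. Fcho1, a factor of clathrin-coated pits, was at 0 CPM in the 3 WT mice of the earlier times and at 74.3 and 124 CPM in the 2 of 14 d, while cKO mice were at 0 to 11.5 CPM. Its log2 fold change was -3.31 ± 0.86 (p 0.00297). It was -4.16 with an adjusted edgeR p of 0.0385 without the 4 shallow libraries, where the adjusted p over all alternatives ran from 0.000269 (all genes with a UMI tested) to 1.00, and 0.14 when the means of all 8 conditions were fitted.

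Bicc1, an RNA-binding protein, was at 110.3 CPM at 1 d, 74.7 and 42.1 at 7 d, then 95.5 and 137 at 14 d in WT mice, and at 17.5 to 75.5 CPM (median 41.1) in cKO mice. Every cKO mouse lay below the WT mice of its time point, and the log2 fold change was -1.04 ± 0.29 (unadjusted edgeR p 0.00327). Tcf7l2, a Wnt-pathway transcription factor of differentiating oligodendrocytes, was also lower at every time: 126, 164, 698, 90.2 and 83.8 CPM in WT mice against 40.9 to 69.1 CPM (median 57.9) in cKO mice. Its log2 fold change was -1.63 ± 0.50 (p 0.00594) and shrank to -0.84 without WT 7 d replicate 2, the mouse at 698 CPM. The Tcf7l2 difference between time points had an unadjusted edgeR p of 0.0132, and uninjured mice gave a log2 fold change of 0.93. Lias, which makes lipoic acid, gave -1.06 ± 0.35 (p 0.00888) and Slc25a23, a mitochondrial carrier, -0.72 (p 0.0111), each lower in cKO mice at every time. Gm42692 gave -0.76 (p 0.0111) and Psma1, a subunit of the proteasome core, -1.13 (p 0.0129).

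WT 7 d replicate 2 differed from the other WT mice in further genes of Cluster 4, chosen after their values were seen. It had 601 CPM of Rras2 (100 UMIs) and 1034 CPM of Marcks (172 UMIs), a membrane-bound regulator of actin, and 1052 CPM of Cntn1, the adhesion molecule contactin 1. The values of Cntn1 in the other injured WT mice were 31.5 to 262 CPM. Its sum of 7 committed-precursor markers was 2249 CPM against 828 to 1375 CPM in the other 4 injured WT mice, and this sum includes Tcf7l2, at 698 CPM in this mouse. The part of committed precursors in this mouse's cells was not tested.

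**Figure D1:**
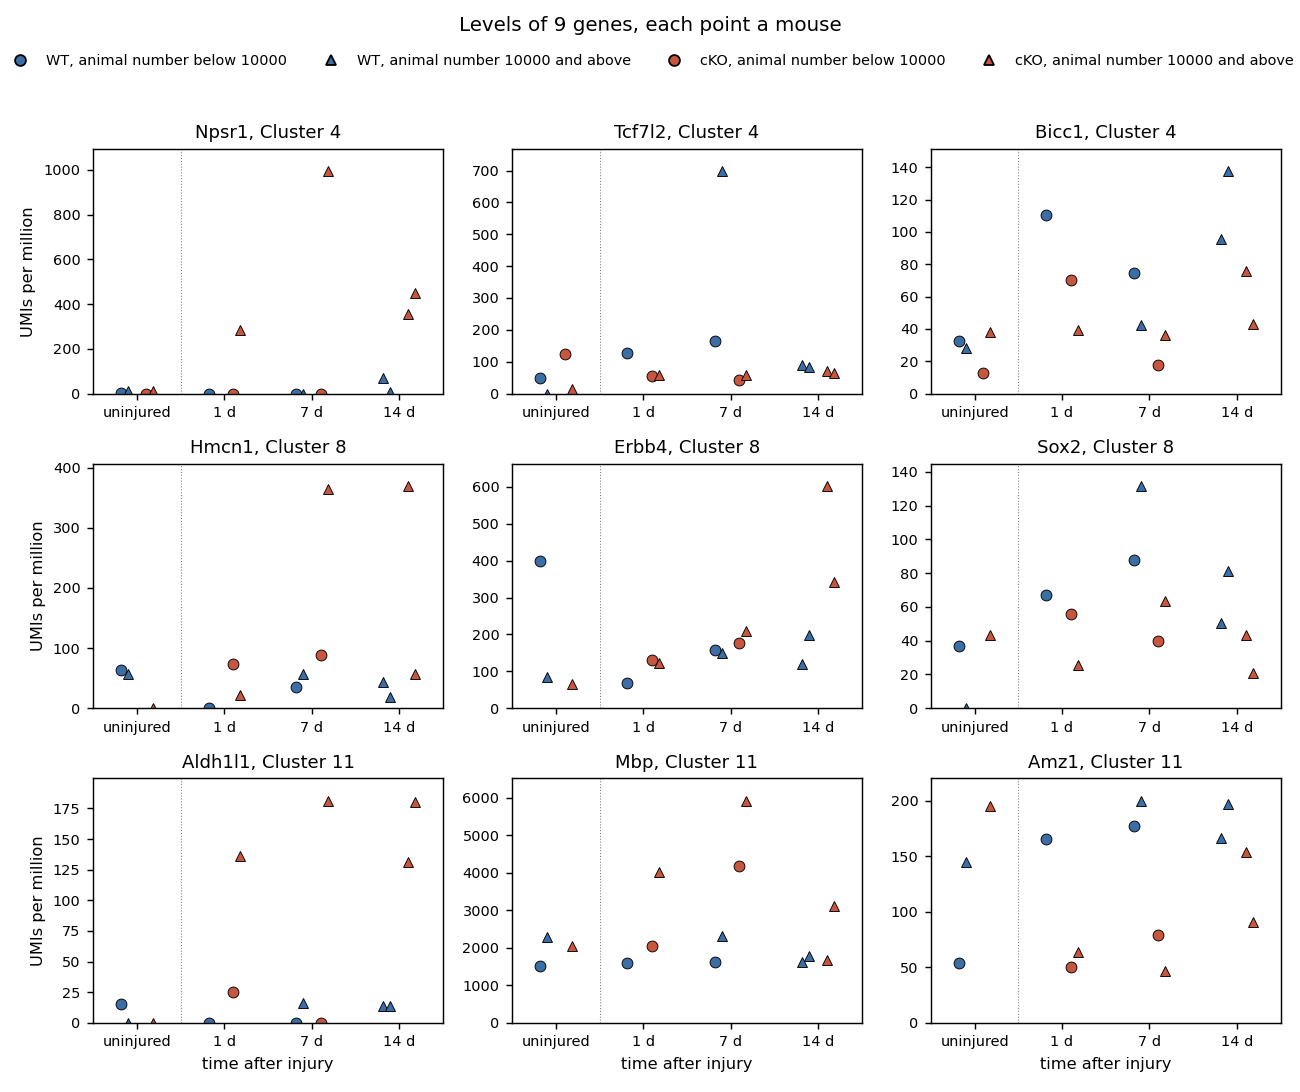
Level of 9 genes in each mouse (CPM, one panel per gene and cluster) by condition (uninjured, then each time after injury) for WT and cKO mice; circles are animal numbers below 10000 and triangles 10000 and above. In Cluster 4, Npsr1 is at 283 to 993 CPM in 4 injured cKO mice and at 0 CPM in the other two.

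In Cluster 8, no gene passed an adjusted p of 0.05 among 4554 tested (0% called, edgeR), and 88 genes, 1.93%, had an unadjusted edgeR p under 0.05. DESeq2 called 0 genes and gave 76 at unadjusted p under 0.05. The median log2 fold change was -0.00, 49.2% of genes were above 0, and the median SE was 0.38. Among the genes with the smallest p, Hmcn1, Lingo2, Stam and Erbb4 were higher in cKO mice at every time and Sox2 was lower at every time, without passing the test after adjustment. As these genes were picked by p on the same mice, their side at each time adds no support. Without WT 7 d replicate 2, 1 gene was called, Zfp804b (log2 fold change 5.64, adjusted edgeR p 0.0144), named after its values were seen. With that mouse Zfp804b gave 0.75 (unadjusted edgeR p 0.574).

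Hmcn1 encodes hemicentin 1, a large protein of the extracellular matrix. In WT mice of Cluster 8 it was at 0 CPM at 1 d, 35.2 and 56.4 at 7 d, then 44.2 and 18.0 at 14 d, from 18 UMIs, and uninjured WT mice had 62.9 and 57.0 CPM. The cKO mice had 74.1 and 22.1 CPM at 1 d, 87.7 and 365 at 7 d, then 369.8 and 57.6 at 14 d, from 371 UMIs. Each cKO mouse was above the WT mice of its time, although cKO 1 d replicate 2 lay within the WT range as a whole. The log2 fold change was 2.69 ± 0.63 (unadjusted edgeR p 0.000531), and 1.73 without cKO 14 d replicate 1. Gm20631, which lies within Hmcn1 on the opposite strand (158234 shared bases of chromosome 1), had 0 UMIs in WT mice and 72 in cKO mice, of which 31 were from 7 d replicate 2, 37 from 14 d replicate 1 and 4 from 14 d replicate 2. Its unadjusted p was 0.00717 by edgeR and 0.29 by DESeq2. The strand of counting was not stated, and whether some of these UMIs belong to Hmcn1 was not tested.

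Lingo2, a transmembrane protein with leucine-rich repeats, ran from 22.4 to 75.1 CPM in WT mice (median 56.4) and from 37.0 to 236 CPM in cKO mice (median 134), with a log2 fold change of 1.58 ± 0.38 (unadjusted edgeR p 0.000733). Stam, of the endosomal sorting machinery, ran from 18.8 to 39.0 CPM (median 35.2) and from 44.3 to 98.7 CPM (median 83.2), without overlap (1.26 ± 0.36, p 0.00279). Erbb4, a receptor of neuregulins, was at 67.1 CPM at 1 d, 158 and 151 at 7 d, then 120.0 and 198 at 14 d in WT mice. In cKO mice Erbb4 ran from 123 to 603 CPM (median 192), a log2 fold change of 0.99 ± 0.32 (p 0.00639), while uninjured mice had 399.6 and 85.6 CPM (WT) and 64.8 CPM (cKO). Gm10701 rested on 8 WT and 176 cKO UMIs (2.98 ± 0.76, p 0.00116), and Gm12166 on 2 and 87 UMIs (3.45 ± 1.06, p 0.00488). Phactr2, a regulator of actin and phosphatases, gave 1.37 (p 0.0112).

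Sox2, a transcription factor of neural progenitors, was at 67.1, 88.0, 132, 50.5 and 81.1 CPM in WT mice of Cluster 8 and at 20.6 to 63.3 CPM (median 41.6) in cKO mice, below the WT mice at every time. Its log2 fold change was -1.04 ± 0.36 (unadjusted edgeR p 0.0107). Trappc5, of a vesicle-tethering complex, ran from 35.2 to 179 CPM in WT mice (median 113) and from 16.4 to 74.1 CPM in cKO mice (median 29.5), with -1.60 ± 0.45 (p 0.00264). The transcripts 9330117O12Rik (-1.39 ± 0.37, p 0.00155) and AC125101.1 (-1.10, p 0.0181) were lower as well, with overlapping mice, as were Gdpd1 (-1.20, p 0.00629), the adhesion molecule Opcml (-0.90, p 0.0132) and Upf3b of nonsense-mediated decay (-1.01, p 0.0147). Tsix gave -3.92 (p 0.0184) on 104 WT and 7 cKO UMIs. It overlaps Xist on the opposite strand over 22889 bases, and whether some of its UMIs belong to Xist was not tested.

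In Cluster 11, no gene passed an adjusted p of 0.05 among 4201 tested (0% called, edgeR), and 94 genes, 2.24%, had an unadjusted edgeR p under 0.05. DESeq2 called 0 genes and gave 95 at unadjusted p under 0.05. The median log2 fold change was 0.05, 55.6% of genes were above 0, and the median SE was 0.43. Aldh1l1, Lrrc58, Klf13 and the myelin transcript Mbp were higher in cKO mice and Amz1, Acss1 and Mfsd6 lower, none past the adjusted threshold. Without cKO 7 d replicate 1, 1 gene was called, Aldh1l1 (log2 fold change 3.62, adjusted edgeR p 0.00533). Without cKO 7 d replicate 2 its log2 fold change was 2.74. Its adjusted edgeR p over all alternatives ran from 0.000351 (all genes with a UMI tested) to 1.00.

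Aldh1l1 encodes a folate enzyme and is widely used as an astrocyte marker. In WT mice of Cluster 11 it was at 0 CPM at 1 d, 0 and 16.0 at 7 d, then 13.9 and 13.7 at 14 d, from 6 UMIs. In cKO mice it was at 24.9 and 136 CPM at 1 d, 0 and 181 at 7 d, then 131 and 181 at 14 d, from 157 UMIs, and uninjured mice were at 15.3 CPM or less. The log2 fold change was 3.33 ± 0.76 (unadjusted edgeR p 0.000244, adjusted edgeR p 0.999). Aldh1l1 was called with the replicate as a block (3.66, adjusted edgeR p 0.0285) and with the animal number series as a term (3.38, adjusted edgeR p 0.0207). The summed astrocyte markers of Cluster 11 were 1167 ± 856 CPM in WT (n = 5) and 1654 ± 934 CPM in cKO mice (n = 6), and the sum includes Aldh1l1 itself. Of its other members, Gfap was at means of 53.3 and 134 CPM and Aqp4 at 15.5 and 68.0 CPM, whereas Slc1a3 was at 94.5 and 70.2 CPM. Outside the lineage, Aldh1l1 had a median of 102 CPM in injured cKO mice (15.5 to 133). Injured WT mice had 29.3 to 50.8 CPM there, with 4 cKO mice above all of them and 1 below. The paper also used a Cre line driven from Aldh1l1 in other experiments, and states the GFAP line for its single-cell samples. The causes of the Aldh1l1 difference, astrocyte transcripts among them, were not tested.

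Klf13, a zinc finger transcription factor, ran from 22.9 to 69.4 CPM in WT mice of Cluster 11 (median 29.5) and from 74.8 to 136 CPM in cKO mice (median 101), without overlap, and its log2 fold change was 1.54 ± 0.45 (unadjusted edgeR p 0.00253). Lrrc58 ran from 24.0 to 88.4 CPM (median 41.6) and from 49.8 to 171 CPM (median 107), with 1.68 ± 0.42 (p 0.000712). Kcnj3, a G protein-gated potassium channel, was at 110.5, 147, 304, 125 and 334 CPM in WT mice and at 349, 408, 99.1, 855, 1123 and 761 CPM in cKO mice, where the low value was 7 d replicate 1. Its log2 fold change of 1.59 ± 0.47 (p 0.00297) became 0.26 once cells with 3 markers of another type were removed. WT 14 d replicate 2, cKO 7 d replicate 2 and cKO 14 d replicate 2 then also left the fit, with 6, 8 and 9 cells, so the parts of those cells and of these 3 mice cannot be told apart. Gm16168 was above the WT mice at every time (1.06 ± 0.33, p 0.00418), as was Snx27, which returns receptors from endosomes (1.20 ± 0.39, p 0.00565). Prr5l, a partner of mTOR complexes, gave 1.98 ± 0.59 (p 0.00308) and Pea15a, a death effector domain protein, 1.13 (p 0.00488).

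Amz1, a metallopeptidase gene, was at 166 to 199.9 CPM in all 5 WT mice of Cluster 11 and at 46.7 to 154 CPM (median 71.7) in cKO mice, without overlap (log2 fold change -1.04 ± 0.35, unadjusted edgeR p 0.00706). Acss1, a mitochondrial acetyl-CoA synthetase (-1.13 ± 0.40, p 0.00976), and Mfsd6 (-1.29 ± 0.46, p 0.00981) were also below the WT mice at every time. Ermard gave -1.03 (p 0.0097), Kcnt2, a sodium-activated potassium channel, -1.08 (p 0.0122) and Cnpy2 -1.25 (p 0.0177). Xist was at 919.6 and 975 CPM in WT 7 d replicate 2 and WT 14 d replicate 2 and at 773 CPM in cKO 1 d replicate 1, and at 0 CPM in the other injured mice (-5.29 ± 1.61, p 0.00354). Leaving out single mice, Xist ran from -9.38 (WT 1 d replicate 1) to -3.05 (WT 14 d replicate 2). Tsix gave -4.39 ± 1.14 (p 0.000955), and from -7.20 to -2.69 without the same mice.

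Of 18 myelin protein genes tested in Cluster 11, 14 had log2 fold changes above 0 and 4 below, and none passed the test after adjustment. Mog was at 116 CPM in WT and 81.7 CPM in cKO mice. Mbp, myelin basic protein, was at 1602 CPM at 1 d, 1621 and 2303 at 7 d, then 1624 and 1780 at 14 d in WT mice of Cluster 11, and at 2044 and 4013, 4184 and 5925, and 1673 and 3126 CPM in cKO mice at those times. Its log2 fold change was 1.00 ± 0.35 (unadjusted edgeR p 0.00943), with 1 of 6 cKO mice, 14 d replicate 1, below a WT mouse of its time. Mobp, named after its values were seen, gave 1.31 (p 0.00618). The summed oligodendrocyte markers of Cluster 11 were 5574 ± 1528 CPM in WT (n = 5, 3770 to 7251) and 10726 ± 5332 CPM in cKO mice (n = 6, 5009 to 19501), and the precursor markers were 15209.6 ± 2664 and 12012 ± 3038 CPM. The committed-precursor markers were at 4289.5 ± 725 CPM in WT and 3883 ± 1739.5 CPM in cKO mice. Marker sums of other cell types also had higher means in these cells of cKO mice: 144 ± 73.0 and 241 ± 55.8 CPM for microglia, 922 ± 323 and 1508 ± 629 CPM for neurons, and 578 ± 448 and 927 ± 710.4 CPM for endothelial cells. Pericyte and smooth muscle markers were at 16.5 ± 29.8 and 103 ± 87.7 CPM, and neutrophil markers at 0 and 24.2 ± 31.8 CPM. The parts of free RNA, of mixed cells and of maturing precursors in these differences were not tested.

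**Figure D2:**
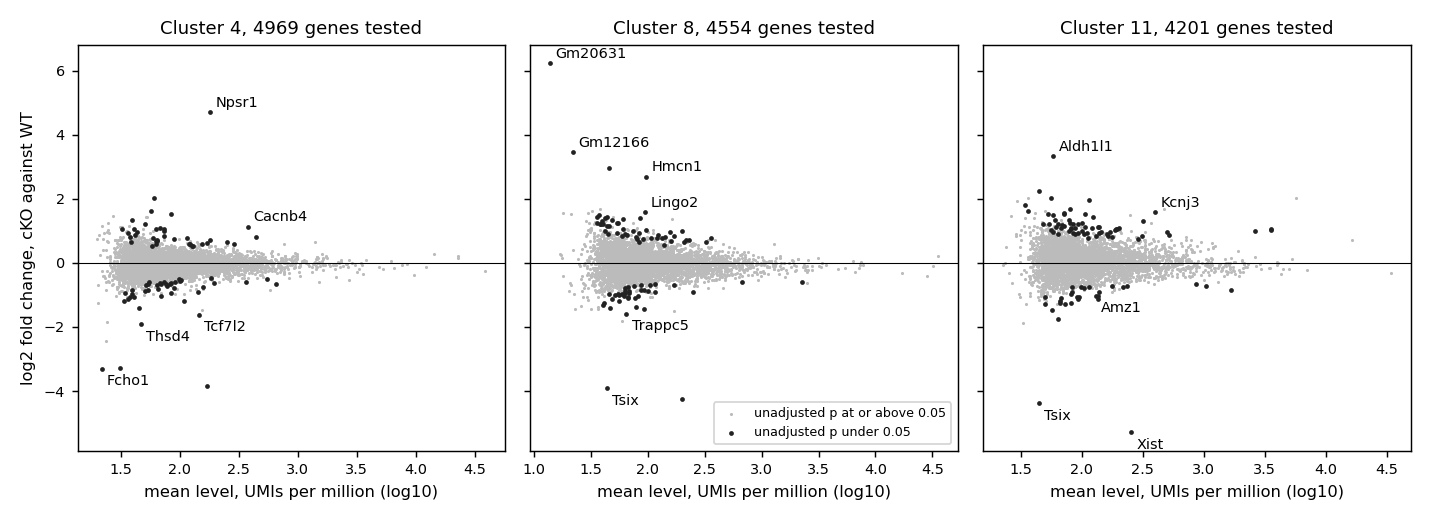
Log2 fold change, cKO over WT after injury, against mean level (log10 CPM) for each gene tested in Clusters 4, 8 and 11, with the named genes marked. No gene passed the adjusted threshold in any panel, and Gm20631, which had 0 UMIs in WT mice, is drawn at its fitted value, which is no bound.

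The gene lists were compared with all genes tested in each cluster, whose median log2 fold changes were -0.02, -0.00 and 0.05 in Clusters 4, 8 and 11. With all mice and the chosen settings, no member of any of the 21 lists passed the adjusted threshold in any cluster by edgeR or DESeq2. With all genes of at least 1 UMI tested, Tcf7l2 was called in Cluster 4 (-1.51, adjusted edgeR p 0.0164). Sex-linked genes were called in each cluster under that setting. Some list medians kept their sign under all alternatives giving a median, 26 for the glucocorticoid response in Cluster 11 and 27 for the others. In Cluster 4 these lists were Wnt receptors, the unfolded protein response and the glucocorticoid response, and in Cluster 8 immediate early genes. In Cluster 11 they were myelin proteins, precursor identity, the unfolded protein response, chondroitin sulfate proteoglycans and the glucocorticoid response. Each other list median changed sign under at least 1. Of 23 myelin protein genes, 23 were tested in Clusters 4 and 8 and 18 in Cluster 11, and 10, 8 and 14 of them were above 0, with median log2 fold changes of -0.03, -0.08 and 0.61. In Clusters 4 and 8 Mbp was close to 0 (0.07 and -0.07) and changed sign under some alternatives, among them the conditions of the cell names in Cluster 4 and the means of all 8 conditions in Cluster 8. The summed myelin protein level in Cluster 11 was 9265 CPM in WT and 14275 CPM in cKO mice, and the median stayed positive, at 0.10 to 0.87, over all alternatives tried.

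Of 27 differentiation regulators, 17, 13 and 21 were tested in Clusters 4, 8 and 11, 6, 5 and 9 were above 0, and the medians were -0.22, -0.10 and -0.10 (Sox6 -0.22 and Bcas1 -0.16 in Cluster 11). Of 27 precursor identity genes, all 27 were tested in Cluster 11 and 2 were above 0, with a median of -0.20 that ranged from -0.37 to -0.06 over the alternatives. The most abundant were Lhfpl3 (-0.20 ± 0.33), the matrix protein Tnr (-0.34 ± 0.35) and Dscam (-0.04 ± 0.33), and their sum with the rest of the list was 33434 CPM in WT and 27304 CPM in cKO mice. In Clusters 4 and 8, 15 and 9 precursor genes were tested, 8 and 5 were above 0 and the medians were 0.02 and 0.06. Of 26 cell cycle genes 3 were tested in each cluster, with medians of -0.11, -0.01 and 0.18 and 1, 1 and 2 above 0. The other 23 did not pass the gene filter, so proliferation was hardly measured, and the cause was not tested.

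Of 35 Wnt receptors and transducers, 14, 15 and 14 were tested, 11, 8 and 9 were above 0, and the medians were 0.08, 0.01 and 0.12, the sign in Cluster 8 flipping with DESeq2 size factors (Prickle2 0.10, -0.11 and -0.03 in Clusters 4, 8 and 11). Of 30 canonical Wnt targets and inhibitors, 7, 2 and 8 were tested, 4, 1 and 3 were above 0, and the medians were 0.06, 0.49 and -0.26. Rnf43, a ligase that removes Wnt receptors, gave 1.25 ± 0.56 in Cluster 8 (unadjusted edgeR p 0.0388) and 0.07 in Cluster 4. Nkd1, a feedback inhibitor, gave 0.16 and -0.28, and Tcf7l2 gave 0.09 ± 0.44 in Cluster 11.

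Of 38 growth factors and receptors, 12, 12 and 16 were tested, 5, 8 and 8 were above 0, and the medians were -0.02, 0.13 and 0.02, with the signs in Clusters 4 and 11 flipping by DESeq2. Fgf1 in Cluster 8 lay above the WT mice at every time (WT 120.0 to 188 CPM, cKO 202 to 352 CPM, 0.65 ± 0.26, unadjusted edgeR p 0.0246). Its receptor Fgfr1 in Cluster 8 ran from 0 to 52.8 CPM in WT and from 23.9 to 84.5 CPM in cKO mice on 16 and 100 UMIs (1.21 ± 0.51, p 0.0302), and it was not tested in Clusters 4 and 11. Fgfr2 gave 0.14, 0.21 and 0.62 ± 0.34 (p 0.0857 in Cluster 11), and Fgfr3 was not tested in any of the 3. Psap and its receptors, 3 genes, had 3, 3 and 2 tested, 2, 1 and 0 above 0, and medians of 0.16, -0.02 and -0.16: Psap gave 0.16, -0.02 and -0.12, Gpr37 0.37 and -0.13, and Gpr37l1 -0.41, 0.86 and -0.19.

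Of 28 axon-glia adhesion genes, 21, 18 and 21 were tested, 8, 8 and 10 were above 0, and the medians were -0.12, -0.01 and -0.03, with the sign in Cluster 8 flipping by DESeq2. Nrcam gave 0.36 in Cluster 4 and -0.36 ± 0.33 in Cluster 11 and was not tested in Cluster 8, and Cntn1 gave -0.41 ± 0.68, -0.26 ± 0.86 and -0.11 ± 0.30. Dscaml1, a homophilic adhesion molecule, gave -0.71 ± 0.32 in Cluster 11 (unadjusted edgeR p 0.0384), named after its values were seen. Of 25 chondroitin sulfate proteoglycans and enzymes, 12, 5 and 15 were tested, 4, 4 and 4 were above 0, and the medians were -0.09, 0.06 and -0.13, with the sign in Cluster 8 flipping by DESeq2 (Ptprz1 -0.28 and Vcan -0.29 in Cluster 11).

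Of 35 genes of cholesterol and myelin lipid synthesis, 31, 32 and 24 were tested, 14, 22 and 19 were above 0, and the medians were -0.04, 0.10 and 0.30. The desaturase Scd2 gave 0.02, 0.14 and 0.27 and Ugt8a, which makes galactosylceramide, -0.07, 0.05 and 0.31 in Clusters 4, 8 and 11. Apoe gave 0.30, 0.72 and 0.31 (unadjusted edgeR p 0.323, 0.147 and 0.431). Of 16 iron-handling genes, 7, 6 and 4 were tested, 3, 4 and 3 were above 0, and the medians were -0.05, 0.05 and 0.25, with Fth1, the heavy chain of ferritin, at -0.14, -0.40 and 1.02 ± 0.43 (p 0.0293 in Cluster 11).

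Of 24 genes of the unfolded protein and integrated stress response, 13, 11 and 8 were tested, 1, 5 and 1 were above 0, and the medians were -0.36, -0.05 and -0.24. In Cluster 4 the chaperones of the endoplasmic reticulum Hsp90b1 (-0.59 ± 0.25, unadjusted edgeR p 0.0300), Canx (-0.25) and Calr (-0.39) were the most abundant of them, and the median stayed between -0.55 and -0.13 over all alternatives tried. Of 17 heat shock genes, 11, 11 and 10 were tested, 3, 4 and 4 were above 0, and the medians were -0.33, -0.17 and -0.09 (Cryab -0.59, -0.17 and -0.33). Of 24 immediate early genes 4 were tested in each cluster, 4, 4 and 3 were above 0, and the medians were 0.17, 0.44 and 0.42, with Fos at 0.21, 1.02 ± 0.58 and 2.04 ± 1.05. A transcription inhibitor was present while the tissue was digested.

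Of 16 glucocorticoid response genes, 13, 9 and 7 were tested, 9, 2 and 5 were above 0, and the medians were 0.42, -0.26 and 0.66. Over the alternatives these medians ran from 0.10 to 0.58 in Cluster 4 and from -0.35 to 0.73 in Cluster 8. In Cluster 11 they ran from 0.08, without the 4 shallow libraries, to 0.99. Sgk1, a kinase induced by glucocorticoids, gave 0.59 ± 0.26 in Cluster 4 (unadjusted edgeR p 0.0431), 0.66 ± 0.38 in Cluster 8 and 0.83 ± 0.38 in Cluster 11 (p 0.0376). Among injured mice, both genotypes had their highest Sgk1 values of Cluster 4 at 1 d, with 457 CPM in the WT mouse and 1211 and 553 CPM in the cKO mice. Uninjured WT mice had 941 and 103 CPM, and uninjured cKO mice 49.8 and 12.7 CPM.

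Of 25 damage-associated oligodendrocyte genes, 17, 16 and 12 were tested, 9, 8 and 6 were above 0, and the medians were 0.05, -0.01 and 0.09 (Trf -0.20, Apod -0.43 and Mt1 -0.29 in Cluster 4, and Klk6 -0.14 in Cluster 8). Of 29 genes of antigen presentation and interferon, 4, 4 and 3 were tested, 2, 3 and 1 were above 0, and the medians were 0.22, 0.36 and -0.50 (B2m 0.66 ± 0.37 in Cluster 8, H2-D1 0.91 ± 0.55 in Cluster 4). All 20 ribosomal protein genes were tested in each cluster, with 5, 2 and 20 above 0 and medians of -0.17, -0.29 and 0.43, and the median turned to -0.04 in Cluster 11 with the conditions of the cell names. Of 13 mitochondrially encoded genes, 13, 13 and 10 were tested, 4, 6 and 3 were above 0, and the medians were -0.07, -0.02 and -0.04. Of 6 sex-linked genes, 5, 5 and 4 were tested, 3, 3 and 2 were above 0, and the medians were 0.99, 0.50 and -1.73 (Uty 2.03 in Cluster 4 and Xist -4.26 in Cluster 8).

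**Figure D3:**
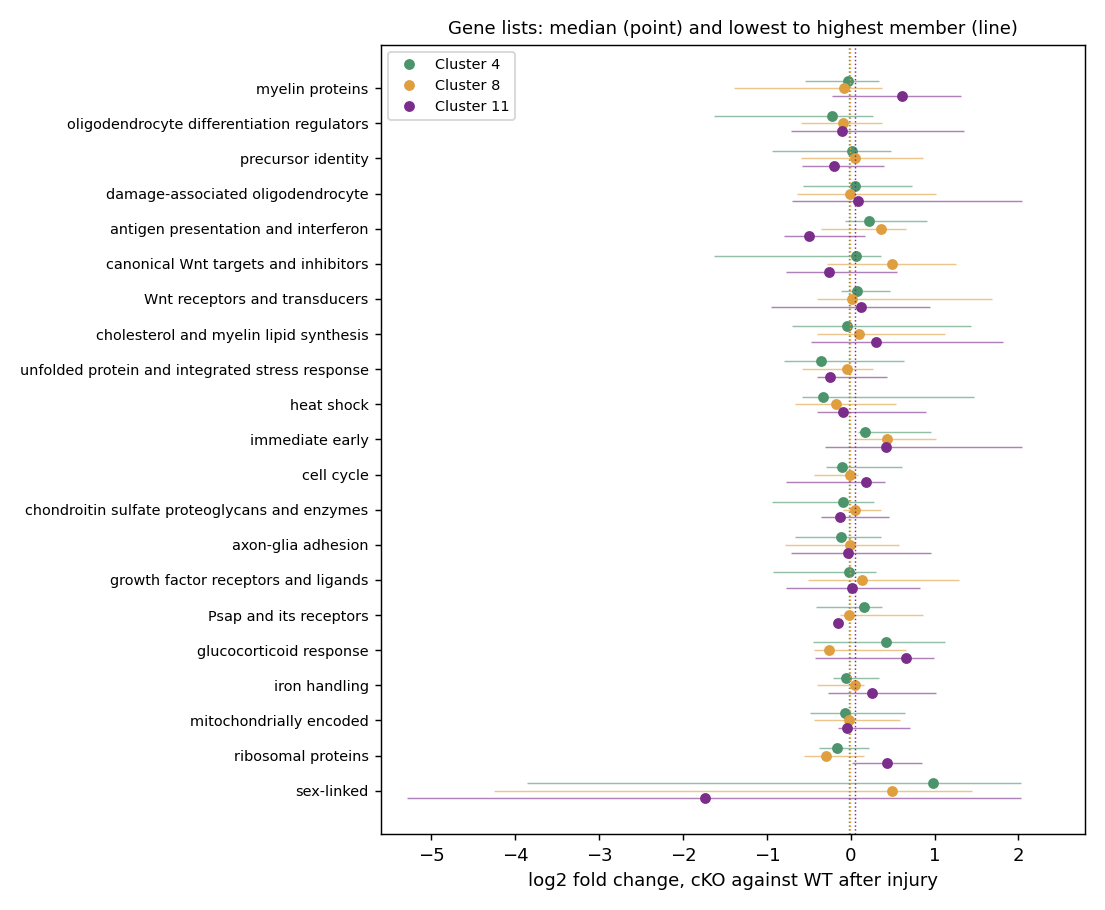
Median log2 fold change (points) and lowest to highest member (lines), cKO over WT after injury, for the tested genes of 21 lists in Clusters 4, 8 and 11; dotted lines are the medians of all genes tested. The myelin protein list of Cluster 11 has a median of 0.61, and the 20 ribosomal protein genes have medians of -0.17, -0.29 and 0.43 in Clusters 4, 8 and 11 (the last turning to -0.04 with the conditions of the cell names).

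Npsr1, Kcnj3, Aldh1l1 and Gm12166 were followed across cell types after their values were seen. In the 4 injured cKO mice with animal numbers of 10000 and above, Npsr1 in Cluster 4 was at 283 CPM or more and Aldh1l1 in Cluster 11 at 131 CPM or more. In the 2 cKO mice below 10000, Npsr1 was at 0 CPM and Aldh1l1 at 24.9 and 0 CPM. In the cells outside Clusters 4, 8 and 11, the medians of injured cKO mice were 16.9 CPM for Npsr1 (WT mice 0 to 6.39), 147 CPM for Kcnj3 (14.6 to 45.2), 102 CPM for Aldh1l1 (29.3 to 50.8) and 18.0 CPM for Gm12166 (0 to 8.13). Npsr1 lies on chromosome 9 (24097996 to 24316398), as do Gm10701, Dpy19l1 and Ryk (102834917 to 102908305), whereas Aldh1l1 lies on chromosome 6, Kcnj3 on chromosome 2 and Gm12166 on chromosome 11. The 3 injured WT mice numbered 10000 and above had 69.0 CPM of Npsr1 or less in Cluster 4 and 16.0 CPM of Aldh1l1 or less in Cluster 11. By animal number, the 4 cKO mice were 10047, 10048, 10104 and 10105 and these WT mice 10113, 10114 and 10117, so genotype and animal number cannot be told apart among the injured mice of this series. The uninjured cKO mouse 10119, numbered among the WT mice, had 12.7 CPM of Npsr1 in Cluster 4 (1 UMI) and 0 CPM of Aldh1l1 in Cluster 11. Litter, strain background and sequencing run were not given in the labels and their part was not tested.

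The genotype difference was also compared between time points. By edgeR, 0 genes had an adjusted p under 0.05 in Clusters 4, 8 and 11, and 168, 151 and 98 had an unadjusted p under 0.05, with 0 called by DESeq2 and 69, 48 and 33 at unadjusted p. The smallest unadjusted edgeR p belonged to Gm36855 in Cluster 4 (0.00314), Zfp804b in Cluster 8 (0.000403) and Mog, a myelin surface protein, in Cluster 11 (0.00278), and all 3 were named after their values were seen. Without WT 7 d replicate 1, 1 gene was called in Cluster 4 (Cwc22, adjusted edgeR p 0.00599) and 1 in Cluster 8 (Zfp804b, 0.0249). Zfp804b in Cluster 8 was also called with all mice kept and the animal number series as a term. With 1 WT mouse at 1 d, that mouse is assumed to vary as the others do.

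The difference after injury was set against that in uninjured mice. No gene had an adjusted edgeR p under 0.05 in any of the 3 clusters, and 251, 394 and 252 genes had an unadjusted p under 0.05 (DESeq2 0 called, 103, 99 and 58). In Cluster 4, Sgk1 had the smallest unadjusted edgeR p (0.000197), with an uninjured log2 fold change of -4.13 against 0.59 after injury. WT uninjured replicate 1 alone held 465 of its uninjured UMIs. Sgk1 was called with the animal number series as a term (4.84, adjusted edgeR p 0.0355). It was also called with all genes of at least 1 UMI tested (5.24, adjusted edgeR p 5.37e-05). The uninjured mice on their own gave 0 called genes by edgeR and by DESeq2, with 311, 344 and 186 at unadjusted edgeR p and 149, 104 and 53 at unadjusted DESeq2 p, and there was 1 cKO mouse in Clusters 8 and 11.

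The genotype difference was tested between clusters before any gene was called particular to one. No gene had an adjusted edgeR p under 0.05 for Cluster 8 minus 4, 11 minus 4 or 11 minus 8, and 173, 256 and 175 had an unadjusted p under 0.05 (DESeq2 0 called, 81, 129 and 115). Rras2, a Ras-family GTPase named after its values were seen, came closest, with a difference of 3.18 ± 0.66 between Clusters 11 and 4 (unadjusted edgeR p 1.46e-05, adjusted edgeR p 0.0925). It passed without cKO 1 d replicate 1 (3.19, adjusted edgeR p 0.0493), cKO 1 d replicate 2 (3.40, 0.0097), WT 7 d replicate 1 (3.39, 0.0332) or cKO 14 d replicate 2 (3.35, 0.0157), and without WT 7 d replicate 2, which had 601 CPM in Cluster 4, the difference was 1.32 ± 0.95 (adjusted edgeR p 0.998). Over all alternatives the adjusted p of Rras2 ran from 0.00500 to 1.00, and its difference was 0.02 without cells holding 3 markers of another type and -0.37 with at least 30 cells per mouse. The former also left out WT 14 d replicate 2, cKO 7 d replicate 2 and cKO 14 d replicate 2, and the latter WT 7 d replicate 2 and both WT mice at 14 d, so the parts of cells and mice cannot be told apart. Hmcn1 was called for Cluster 8 minus 4 without cKO 14 d replicate 2 (3.92, adjusted edgeR p 0.0109), with at least 5 UMIs in at least 5 mice (2.53, 0.0104), without the mice whose cell names differ (3.57, 0.0463) and without the 4 shallow libraries (2.71, 0.0179). Without the shallow libraries Lingo2 for Cluster 8 minus 4 (2.29, adjusted edgeR p 0.00278) and Thsd4 for Cluster 11 minus 4 (2.78, 0.0354) were called as well, and Grik1, a kainate receptor, for Cluster 11 minus 8 without cKO 7 d replicate 1 (2.796, 0.0125). The replicate as a block, with all mice kept, called Marcks (2.04, adjusted edgeR p 0.0305) and Gria1 (2.78, 0.0305) for Cluster 11 minus 4. Marcks was also called there with the animal number series as a term (2.17, adjusted edgeR p 0.0154). With all mice and the chosen settings, no difference named above was shown to belong to 1 cluster.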

How the data were processed

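Single-cell libraries of 16 mouse spinal cords were made and sequenced by the authors, who processed them with Cell Ranger on GRCm38 (mm10), R 4.1.2 and Seurat; the versions of Cell Ranger and the gene annotation were not given in the sources used here. The authors deposited counts, UMIs per gene and cell for 55487 gene symbols and 18203 cells, and a cell table with cluster, condition and total UMIs. That deposited table also holds the percent of mitochondrial UMIs per cell. Column sums of the matrix equalled the table's totals in all 18203 cells, and the titles matched the table's conditions for 16 of 16 mice.

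For each mouse and each of Clusters 4, 8 and 11 the UMIs of the cells were added up, where a mouse had at least 10 cells. Genes passing filterByExpr were tested with edgeR 4.0.16 (TMM scaling, quasi-likelihood F test) in R 4.3.3, with time point plus genotype as terms and Benjamini-Hochberg adjustment over all genes tested at 0.05. DESeq2 1.42.0 was run beside it. Fold changes are log2 of cKO over WT, and printed levels are plain CPM without TMM scaling. The SE of an edgeR fold change was derived from the test, as the absolute log2 fold change divided by the square root of F. It is not a standard error reported by the fit. Time by genotype, injured minus uninjured and differences between clusters were tested in further edgeR fits. For the shares, genotypes were permuted within time points (exact, two-sided), with intervals that cover counting error only. Tables and plots used Python 3.11.15 with numpy 2.4.6, pandas 2.3.3, scipy 1.17.1 and matplotlib 3.10.9. The fits were also run on simulated counts, with changes larger than most differences named here and only among genes of high level. Smaller changes were not simulated, so these runs do not show what the fits would miss at the sizes found here. A tolerance of that check was loosened after its first output was seen. Gene positions came from GENCODE vM21, matched by symbol, and 143 of 144 symbols looked up had 1 gene.

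The precision depended on level: the median SE of a log2 fold change ran from 0.42 among the genes of lowest level to 0.25 among those of highest level (genes ranked by level in 4 bins) in Cluster 4, from 0.50 to 0.31 in Cluster 8 and from 0.56 to 0.36 in Cluster 11.

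Genes were named by a rule: Ryk, Nrcam, Cntn1, Psap, Gpr37, Gpr37l1, Fgfr1, Fgfr2, Fgfr3 and Apoe; among called genes up to 10 per direction with the largest fold change and cKO mice on 1 side of WT mice at every time; where fewer than 10 were called, the 8 per direction with the smallest unadjusted p, as values that did not pass; and of each of 21 gene lists the 3 most abundant members and every called member. The members of the comparison and the lists were chosen with earlier results of these data known.

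Replicate numbers equal the batch in the cell table for all 16 mice. Whether they pair mice was checked by correlating, across genes, the difference between replicates 1 and 2 of a condition with that of another: the median r was 0.189 in Cluster 4 (above 0.1 for 14 of 21 pairs), 0.257 in Cluster 8 (10 of 15 pairs) and 0.0346 in Cluster 11 (7 of 15 pairs), so the replicate was tried as a block. Genes are not independent replicates in such a correlation. The other alternatives changed the scaling, the gene and cell filters, the design terms, the conditions of mice whose cell names differ and the mice included; 3 of them (shallow libraries left out, cells of shared barcodes left out, Xist above Y-linked genes as a term) were chosen after seeing the data.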

Additional observations from a re-analysis of the deposited data

Results flagged for a closer look

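A mouse far from the others of its genotype was looked for in 56 groups of injured mice, and 8 were found. Chance finds about 1 in 20 groups where the values of a group are normally distributed. Several of these groups hold values at 0 CPM or on few UMIs, so that rate may not hold, and the groups share the same 11 mice. Of the 8 found, 4 were WT 7 d replicate 2: Cntn1 at 1052 CPM in Cluster 4 (other WT mice 31.5 to 262), Cntn1 at 395 CPM in Cluster 8 (0 to 57.1), Gpr37l1 at 72.2 CPM in Cluster 4 (0 to 19.2) and Gpr37l1 at 169 CPM in Cluster 8 (0 to 24.0). Another pair were cKO 1 d replicate 1, with Ryk at 111 CPM in Cluster 8 (other cKO mice 56.9 to 71.8) and at 125 CPM in Cluster 11 (55.5 to 79.9), on 6 and 5 UMIs. The last pair were cKO 1 d replicate 2, with Gpr37l1 at 96.8 CPM in Cluster 4 (0 to 21.5) and Fgfr2 at 266 CPM in Cluster 8, below the 559 to 652 of the other cKO mice. The causes were not tested.

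Of the 23 genes named for a small p and a higher level in cKO mice, 7 also had a median over the injured cKO mice above every WT mouse, uninjured mice included, in the cells outside Clusters 4, 8 and 11, which no comparison used. Of all 6180 genes tested in at least 1 of the 3 clusters, 110, 1.78%, met the same rule, as did 1 of the 23 genes named as lower, Kcnt2. Those medians were 16.9 CPM for Npsr1, 102 CPM for Aldh1l1, 147 CPM for Kcnj3, 18.0 CPM for Gm12166, 124 CPM for Gna13, 60.9 CPM for Dpy19l1 and 8.90 CPM for Gm10701. The highest values of injured WT mice were 6.39, 50.8, 45.2, 8.13, 119.9, 60.7 and 8.39 CPM in that order, so Gna13, Dpy19l1 and Gm10701 exceeded them narrowly. The genes were picked on the same mice, and no test was run outside the lineage.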

How the results depend on the processing

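Over 18 alternatives and the leaving out of each of 11 mice, 276 counts of called genes stayed at 0 or within the same bound and 36 moved. Of the values of Ryk 55 kept their direction and 19 reversed, and of the shares 71 kept it and 7 reversed, all without passing a threshold. The cause was not tested in any of these unless stated.

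With all genes of at least 1 UMI tested, edgeR called 16, 13 and 4 genes for cKO against WT in Clusters 4, 8 and 11, 29, 24 and 4 for genotype by time, 1 and 1 for injured minus uninjured in Clusters 4 and 11, and 2 for Cluster 11 minus 4, and Ryk was 0.10 in Cluster 4 and 0.00422 in Cluster 11. That setting moved the median of all genes to 0.12, 0.26 and 0.34. With at least 5 UMIs in at least 5 mice, Ryk in Cluster 4 was 0.0329, 1 gene was called for Cluster 8 minus 4 (Hmcn1) and 2 for Cluster 11 minus 4 (Rras2, Marcks). With at least 30 cells per mouse, 1 was called for Cluster 11 minus 8 (Slc24a2), and the median of all genes in Cluster 11 was 0.17. With the means of all 8 conditions, Ryk in Cluster 11 was 0.21, where the median of all genes was 0.23, and Fcho1 in Cluster 4 was 0.14.

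With the replicate as a block, the pairing term, Ryk in Cluster 4 was 0.00715, 1 gene was called in Cluster 11 (Aldh1l1, 3.66, adjusted edgeR p 0.0285) and 2 for Cluster 11 minus 4 (Marcks, Gria1), and the block changed no other call. With the animal number series as a term, Ryk in Cluster 4 was 0.000418, and 1 gene was called in Cluster 11 (Aldh1l1, 3.38, adjusted edgeR p 0.0207), 1 for injured minus uninjured in Cluster 4 (Sgk1), 1 for genotype by time in Cluster 8 (Zfp804b) and 1 for Cluster 11 minus 4 (Marcks). With the conditions of the cell names, Ryk in Cluster 4 was 0.26, 1 gene was called for Cluster 11 minus 4 (Dgat2) and 1 for Cluster 11 minus 8 (Gm26870), and the share of Cluster 8 in Clusters 4 and 8 was -4.67 percentage points. Without the mice whose cell names differ, Ryk in Cluster 4 was 0.21 and 5 genes were called for Cluster 8 minus 4. With only cells of at least 500 UMIs, the shares of Clusters 4 and 8 differed by -0.245 and -0.474 percentage points.

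Of the alternatives chosen after seeing the data, leaving out the 4 shallow libraries called 1 gene in Cluster 4 (Fcho1), 1 and 1 for genotype by time in Clusters 4 (Cwc22) and 8 (Zfp804b), 10 for Cluster 8 minus 4 and 8 for Cluster 11 minus 4, with Ryk at 0.0624 in Cluster 4. With Xist above Y-linked genes as a term, Ryk in Cluster 4 was 0.0465.

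Leaving out single mice, Ryk ran from -0.18 to 0.21 in Cluster 4, from 0.09 to 0.52 in Cluster 8 and from -0.36 to 0.15 in Cluster 11. Called genes ran from 0 to 0, 0 to 1 and 0 to 1 for cKO against WT in Clusters 4, 8 and 11, from 0 to 1, 0 to 1 and 0 to 0 for genotype by time, and from 0 to 1 for each difference between clusters. The differences in share ran from -0.732 to 1.68 (Cluster 4), 0.0423 to 0.783 (Cluster 8), 0.173 to 2.00 (Cluster 11), 0.0359 to 3.15 (Cluster 8 of Clusters 4 and 8) and -0.364 to 6.26 percentage points (Cluster 11 of the lineage).

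Injured minus uninjured could not be fitted in Cluster 11 with at least 30 cells per mouse, nor in Clusters 8 and 11 without the mice whose cell names differ. Ryk did not pass the gene filter when cells were thinned to 500 UMIs or when cells with 3 markers of another type were removed.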

Other observations

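Outside the lineage, the 4 injured cKO mice numbered 10000 and above carried high levels of a few transcripts in other cell types, although Kcnj3 in neurons of Cluster 3 did not separate them (163 to 272 CPM, against up to 661 CPM in WT 1 d replicate 1). In astrocyte Cluster 7, Kcnj3 was at 670.2, 1138, 960.4 and 1089 CPM in those mice (1 d, 7 d and the 2 of 14 d) and at 140.2 CPM or less in the others. Aldh1l1 was at 588, 670.0, 625 and 719 CPM in Cluster 7 of the same mice, against 112 to 469 CPM elsewhere, and at 131, 194, 133 and 188 CPM in neurons of Cluster 3. These genes were chosen after their values were seen, and the cause was not tested.

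Sox2, lower in Cluster 8 of cKO mice, was also lower outside the lineage in injured cKO mice, with a median of 37.7 CPM against 61.8 CPM in injured WT mice. Of the 6 cKO mice, 4 lay below all 5 injured WT mice. Sox2 was singled out here after its values were seen, and how many of all genes have as many mice below was not counted. Hmcn1, named as higher in Cluster 8, went the other way outside the lineage, with medians of 377 CPM in cKO and 409 CPM in injured WT mice and 3 cKO mice below all of the latter. With uninjured WT mice included, 0 of the 23 genes named as lower had a cKO median below every WT mouse. Of all 6180 genes tested, 44 had one (0.712%).

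WT uninjured replicate 1 held both Xist (46.8 CPM) and Y-linked transcripts (347 CPM), whereas each of the other 14 mice had mainly one of them. It also had 941 CPM of Sgk1 in Cluster 4 and 696 CPM in Cluster 8, where WT uninjured replicate 2 had 103 and 42.8 CPM.

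Of 17937 distinct cell barcodes, 166 occurred in more than 1 library, 15 of 3273 in Clusters 4, 8 and 11. The 6 pairs of the 4 shallow libraries held 341 shared barcodes when summed over pairs, and in 315 of them the cells of both libraries had the same cluster.

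The number of cells, the low UMI count per cell and the small groups limit these comparisons. Cluster 11 of WT 1 d replicate 1 rested on 32 cells and 18106 UMIs, and 1 UMI there equals 55.2 CPM. The mice numbered below 10000 occur among injured mice at 1 d and 7 d and not at 14 d, so the animal series and the time point overlap in part. The uninjured cKO group had 1 mouse in Clusters 8 and 11, and its difference from WT mice is a value with a borrowed spread.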
